A study of Mus musculus with 8 samples.

Results

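The histone mark H3K4me1 was compared between haematopoietic stem cells (HSCs) that lack the retinoid X receptors and control HSCs. The comparison holds 4 of the 8 libraries of the series, taken by their mark label, with 2 WT and 2 RXRKO libraries. The other 4 libraries map H3K4me3 and H3K27ac. Of these, only the H3K4me3 libraries were used, to place gene starts and to sort genes by H3K4me3 at the start. The assay was CUT&RUN: an antibody guides a nuclease to the marked nucleosomes, and the fragments it frees are sequenced. RXRKO mice carried VavCre with deleted Rxra and Rxrb alleles, and Vav drives Cre in blood cells. The sample labels of the WT mice give VavCre and wild-type receptor genes, whereas the protocol describes floxed mice without Cre, so a difference between genotypes may hold a difference in Cre. All mice were C57BL/6 animals of about 10 months, and the cells of 4 or 5 mice were pooled. Each assay used 7500 HSCs, sorted as lineage-negative Kit+ Sca1+ CD48- CD150+ cells. The labels do not say that the replicates came from separate pools, so p-values measure only the spread between libraries. Replicate 1 of both genotypes carries one run tag and replicate 2 of both genotypes another, so each replicate number is a run pair that holds both genotypes.

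H3K4me1 is laid down by the KMT2C and KMT2D methyltransferases on nucleosomes at enhancers and on the flanks of active promoters. RXRA and RXRB are nuclear receptors that bind DNA as partners of other receptors, among them those for retinoic acid, oxysterols (LXR), fatty acids (PPAR), vitamin D and thyroid hormone. Their sites are built from the half-site AGGTCA, often at a distance from the gene start.

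The deleted genes were examined first. H3K4me1 peaks covered 1391 and 1431 bp of Rxrb (mm10, chromosome 17, 34031812 to 34038403) in WT replicates 1 and 2, and 580 and 738 bp in RXRKO. Over Rxra (chromosome 2, 27676445 to 27763319) they covered 21563 and 24413 bp in WT and 22567 and 25320 bp in RXRKO. Rxrb was therefore lower in both run pairs, and Rxra was not. Missing DNA and loss of the mark cannot be told apart at Rxrb, and peaks over undeleted parts of Rxra check nothing.

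The lists held 149377 and 159713 peaks in the WT replicates and 147698 and 165128 in RXRKO. They covered 112.5 and 117.8 Mb in WT and 109.8 and 133.3 Mb in RXRKO. RXRKO coverage was thus 0.976 times that of WT in replicate 1 and 1.13 times in replicate 2. RXRKO replicate 2 stood apart by its wide peaks: 3.75% of them exceeded 2000 bp, against 1.99% and 2.19% in WT and 1.85% in RXRKO replicate 1. The median peak was 639 and 604 bp wide in WT and 625 and 659 bp in RXRKO. Sequencing depth is not in the lists, so its part in these differences was not tested. With 2 libraries against 2, an exact permutation test cannot give a two-sided p below 0.333, and no library-wide measure can pass.

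H3K4me1 lay mostly away from gene starts, in the same way in both genotypes. Peak summits within 1 kb of a protein-coding start made up 10.1% and 9.80% in WT and 10.3% and 9.16% in RXRKO. Summits more than 100 kb away made up 19.3% and 19.4% in WT and 18.8% and 20.5% in RXRKO. The difference between genotypes changed sign between the run pairs for both shares. Summits in gene bodies made up 59.0% and 58.9% in WT and 59.3% and 59.7% in RXRKO, higher in RXRKO in both pairs by 0.240 and 0.838 percentage points. Within each list, the 10% of peaks with the lowest fold over background, as the authors' files give it, were narrow, with medians of 287 to 311 bp. Of these, 74.6% to 76.7% lay in gene bodies. The highest 10% had medians of 1118 to 1262 bp, and 47.7% to 50.0% of them lay in gene bodies.

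Around the starts of 17274 genes of known strand, coverage peaked at the start itself, with a shoulder downstream in replicate 1 of both genotypes. In the first 250 bp after the start, peaks covered 42.8% and 53.9% of bases in WT and 42.2% and 54.2% in RXRKO. Both genotypes were thus alike within a run, and replicate 2 was higher than replicate 1 in both. Between 750 and 1000 bp downstream the values were 32.2%, 34.1%, 30.7% and 37.7% in the order WT 1, WT 2, RXRKO 1 and RXRKO 2, and between 4000 and 5000 bp they were 6.97%, 6.53%, 6.97% and 7.66%. Genes with H3K4me3 at the start (11168 genes) reached 64.1%, 80.8%, 63.2% and 81.1% in the first 250 bp, and the 6106 genes without it 3.9%, 4.75%, 3.87% and 5.06%. Promoters rich in CpG, with a CpG ratio of at least 0.6 and a GC content of at least 50%, carried a peak in 79.0% and 91.8% of cases in WT and 78.2% and 91.4% in RXRKO. The other promoters did so in 38.6% and 41.3% of cases in WT and 38.2% and 41.6% in RXRKO. The difference between runs at CpG-rich promoters was therefore larger than the difference between genotypes within either run.

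**Figure D1:**
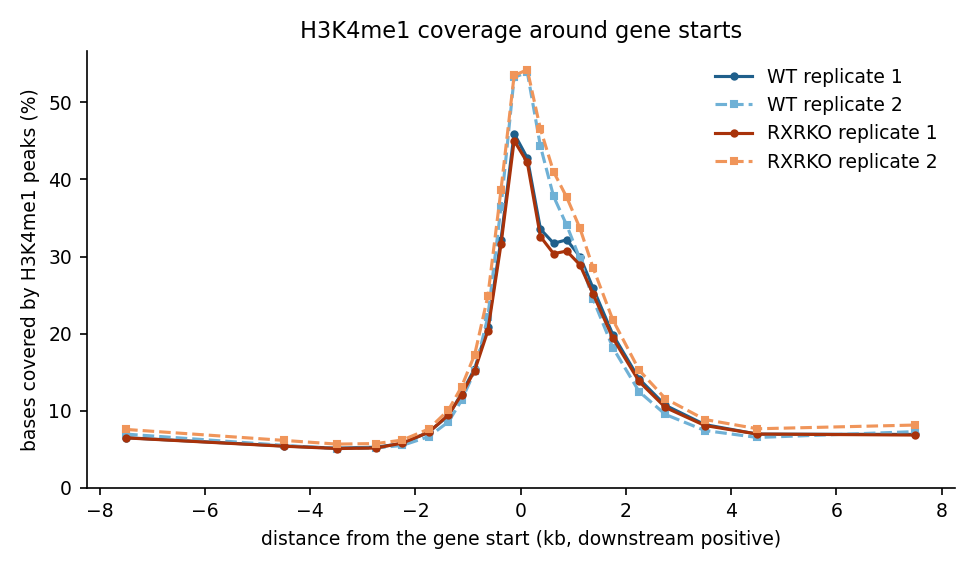
Percentage of bases covered by H3K4me1 peaks (vertical axis) against distance from the gene start in kb (horizontal axis) for the 4 libraries over 17274 genes. Lines of the same run lie together at the start, with replicate 2 of both genotypes (squares, dashed) above replicate 1 (circles, solid).

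A small set of promoters was touched by H3K4me1 peaks of 1 genotype alone. Of 21045 protein-coding promoters of 300 bp (250 bp before to 50 bp after a start), 11390 were touched by a peak in all 4 libraries and 7112 in none. Another 2543 were touched in 1 to 3 libraries. Among them were 35 touched in both RXRKO libraries and no WT library, and 44 in both WT libraries and no RXRKO library. The 35 and the 44 were picked by their coverage, so the values describe them and carry no test. The lesser of the 2 covering libraries reached at least 150 bp in 15 of the 35 and 17 of the 44, so most were covered over a shorter stretch in at least 1 library. For 5 of the 35 and 9 of the 44, another start of the same gene was covered in all 4 libraries. Among the RXRKO promoters were those of Rdh1, which encodes a retinol dehydrogenase, Sele, which encodes E-selectin, and Cybb, which encodes the catalytic subunit of the phagocyte oxidase. Among the WT promoters were those of the T cell kinase gene Lck, the recombinase gene Rag2, the phosphoinositide kinase gene Pik3cg and Slamf1. Slamf1 encodes CD150, which was used to sort the cells, and its promoter was covered over only 113 and 24 bp in WT. Within 5 kb of the Slamf1 start, peaks covered 2102 and 2140 bp in WT and 1950 and 1539 bp in RXRKO.

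Promoters touched by peaks of 1 genotype alone are shown from RefSeq (GRCm38.p6, the mm10 build), 5′ to 3′ on the gene's strand. Bases that both libraries of that genotype covered are in capitals. Rdh1 (chr10:127759513-127759812, plus strand) was covered over 300 bp in both RXRKO libraries, Sele (chr1:164047984-164048283, plus strand) over 214 and 300 bp, and Olfm3, an olfactomedin gene (chr3:114903828-114904127, plus strand), over 35 and 102 bp. None of the 3 was covered in WT.
Rdh1: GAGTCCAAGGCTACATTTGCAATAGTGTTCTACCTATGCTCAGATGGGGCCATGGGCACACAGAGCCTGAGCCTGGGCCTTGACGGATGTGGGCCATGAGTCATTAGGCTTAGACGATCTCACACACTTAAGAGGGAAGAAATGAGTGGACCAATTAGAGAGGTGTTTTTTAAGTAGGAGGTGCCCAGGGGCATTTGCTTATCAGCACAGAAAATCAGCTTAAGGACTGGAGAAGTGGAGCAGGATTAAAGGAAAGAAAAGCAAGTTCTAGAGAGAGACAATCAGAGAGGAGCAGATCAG
Sele: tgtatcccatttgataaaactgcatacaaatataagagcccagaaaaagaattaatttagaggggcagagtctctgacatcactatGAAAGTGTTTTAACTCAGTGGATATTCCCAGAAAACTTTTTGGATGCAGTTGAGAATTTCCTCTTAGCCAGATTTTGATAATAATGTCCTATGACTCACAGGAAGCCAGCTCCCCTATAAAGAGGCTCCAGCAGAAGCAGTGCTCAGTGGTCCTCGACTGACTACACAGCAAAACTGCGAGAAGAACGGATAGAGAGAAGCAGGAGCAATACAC
Olfm3: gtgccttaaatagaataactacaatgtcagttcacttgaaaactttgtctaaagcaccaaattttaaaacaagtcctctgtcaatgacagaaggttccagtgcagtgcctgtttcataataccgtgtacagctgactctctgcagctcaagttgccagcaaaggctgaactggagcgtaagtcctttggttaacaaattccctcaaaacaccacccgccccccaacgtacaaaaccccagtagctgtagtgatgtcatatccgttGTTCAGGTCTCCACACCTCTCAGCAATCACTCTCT
Adcy7, an adenylyl cyclase gene (chr8:88282742-88283041, plus strand), was covered over 300 bp in both WT libraries, Lck (chr4:129558323-129558622, minus strand) over 233 and 178 bp, and the inner start of the inflammasome sensor gene Nlrp3 (chr11:59542436-59542735, plus strand) over 166 and 300 bp. None of these was covered in RXRKO, and each of the 3 genes has another start that was covered in all 4 libraries.
Adcy7: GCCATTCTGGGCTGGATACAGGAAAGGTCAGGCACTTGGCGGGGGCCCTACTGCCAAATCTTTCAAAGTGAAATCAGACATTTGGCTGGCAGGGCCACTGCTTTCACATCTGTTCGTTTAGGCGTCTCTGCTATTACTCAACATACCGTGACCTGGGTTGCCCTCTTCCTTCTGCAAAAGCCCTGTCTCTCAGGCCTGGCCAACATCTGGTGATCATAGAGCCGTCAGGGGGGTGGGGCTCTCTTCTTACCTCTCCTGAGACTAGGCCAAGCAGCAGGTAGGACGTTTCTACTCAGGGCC
Lck: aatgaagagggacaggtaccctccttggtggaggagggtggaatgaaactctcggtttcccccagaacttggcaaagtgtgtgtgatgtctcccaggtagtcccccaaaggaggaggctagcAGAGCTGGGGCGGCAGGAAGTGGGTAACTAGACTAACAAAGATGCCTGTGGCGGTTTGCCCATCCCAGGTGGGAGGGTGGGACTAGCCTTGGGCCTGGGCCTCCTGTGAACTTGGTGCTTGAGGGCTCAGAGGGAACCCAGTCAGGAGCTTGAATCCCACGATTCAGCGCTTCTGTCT
Nlrp3: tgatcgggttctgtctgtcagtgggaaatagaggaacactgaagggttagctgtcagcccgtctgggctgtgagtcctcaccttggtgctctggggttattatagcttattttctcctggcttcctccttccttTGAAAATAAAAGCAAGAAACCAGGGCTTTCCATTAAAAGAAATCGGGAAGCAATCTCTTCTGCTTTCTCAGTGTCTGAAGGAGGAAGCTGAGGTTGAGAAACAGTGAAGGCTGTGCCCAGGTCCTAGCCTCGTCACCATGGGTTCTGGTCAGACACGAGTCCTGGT
In the Sele, Olfm3, Lck and Nlrp3 promoters the covered bases ran up to the downstream end, where the gene begins. The half-site AGGTCA, searched on both strands, occurred 2 times in the Adcy7 promoter and 0 times in the other 5. It occurred in 14.6% of all 21045 promoters, in 12.1% of those covered in all 4 libraries, in 19.7% of those covered in none, in 3 of the 35 and in 8 of the 44. The paired element DR1, AGGTCA repeated with a spacer of 1 base, was found in 10 of all promoters and in 0 of the 35 and the 44. CpG-rich promoters made up 63.8% of those covered in all 4 libraries, 9.55% of those covered in none, 20.0% of the 35 and 18.2% of the 44.

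Where the mark was called was next compared region by region. Overlapping peaks of the 4 lists were merged into 181242 regions, of which 112074 (61.8%) were called in all 4 libraries. The regions of all 4 libraries had a median width of 1056 bp, and 10.9% of them lay within 1 kb of a start. Both RXRKO libraries alone called 3925 regions (2.17%), with a median width of 438 bp. Both WT libraries alone called 3513 (1.94%), with a median of 402 bp. Only 2.04% and 2.28% of these lay within 1 kb of a start, and 25.9% and 25.4% lay more than 100 kb away, against 19.2% of the regions of all 4. Between 1 and 5 kb from a start lay 12.9% of the RXRKO regions and 8.23% of the WT regions, and in gene bodies lay 59.6% and 54.6%. Regions called in any 2 libraries and no other numbered 19697 (10.9%), which include the 3925 and the 3513. Regions called in few libraries were narrow whatever the genotype, with medians of 387 bp for any 2 libraries and 256 bp for any 1. Of these, 21.3% and 25.3% lay beyond 100 kb. Chromosome X held 2.62% of the RXRKO regions and 3.33% of the WT regions, against 2.37% of those of all 4.

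**Figure D2:**
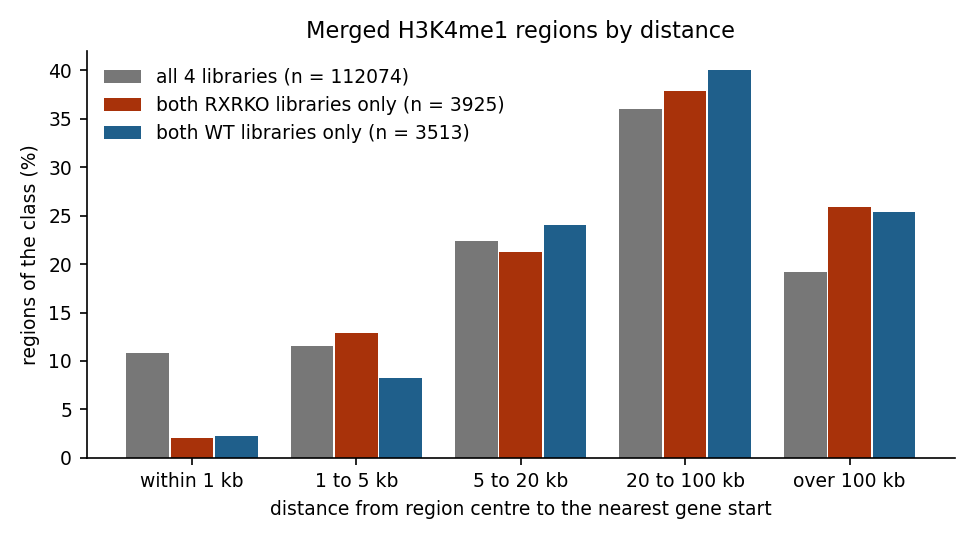
Percentage of merged regions (vertical axis) by distance from the region's centre to the nearest protein-coding start (horizontal axis), for regions called in all 4 libraries, in both RXRKO libraries only and in both WT libraries only. Within 1 kb lie 10.9% of the first class and 2.04% and 2.28% of the others.

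The libraries differed in how many regions they called alone. Regions called in RXRKO replicate 2 alone numbered 16066, against 2963 in RXRKO replicate 1, 4785 in WT replicate 1 and 8864 in WT replicate 2. The RXRKO and WT counts became 8184 and 12377 without WT replicate 1, and 8319 and 8298 without WT replicate 2. Leaving out RXRKO replicate 1 gave 19991 and 6391, and leaving out RXRKO replicate 2 gave 6888 and 8775. Such counts ask for a call only in the libraries kept, so they can only rise. The genotype that lost a library was counted by 1 library, so the RXRKO and WT counts are not alike. Within a run, peaks of the other genotype overlapped 88.0% and 89.0% of WT peaks and 90.2% and 82.6% of RXRKO peaks in replicates 1 and 2. Between runs of the same genotype, the overlap was 89.9% and 85.0% for WT and 93.5% and 80.1% for RXRKO. In each of these comparisons the higher overlap was with the list that covered more bases. The overlaps therefore cannot show whether libraries of 1 genotype were closer to each other. Where all 4 libraries called a single peak (86854 regions), the summits of the genotypes lay a median of 45 and 35 bp apart within the runs, and summits of a genotype lay 46 and 46 bp apart between runs.

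The length covered by the mark was tested near promoters. For each gene, the bases covered by peaks within 5 kb of the start were summed, 500 bp was added before taking log2, and values were centred on each library's median and fitted with limma. At a Benjamini-Hochberg adjusted p under 0.05, 0 of 16483 genes passed (0%). Before adjustment, limma gave 584 genes (3.54%) a p under 0.05, of which 300 (1.82%) were higher and 284 (1.72%) lower in RXRKO. Fewer cells with the mark and less mark per cell cannot be told apart in such pools. With the run pair as a block, 1 gene passed (0.00607%). This was Pcsk2, which encodes a prohormone convertase, and no base within 5 kb of its start was covered in WT, against 1389 and 2451 bp in RXRKO (log2 difference +2.19, SE 0.219, limma adjusted p = 0.223, and 0.0364 with the block). With WT at 0, Pcsk2 and Olfm3 passed the filter of 300 bp only through RXRKO and had to differ, and the size of the difference depends on the 500 bp added. The block leaves 1 residual degree of freedom per gene and leans on the spread pooled over genes. Without WT replicate 1 or WT replicate 2, 81 and 38 genes passed, and 0 passed without either RXRKO library. Here and in the other fits without 1 library, the spread comes from the genotype that kept both libraries and is taken to hold for the other.

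The other promoter windows with the smallest p that were higher in RXRKO belonged to Olfm3, Plcxd3, Galnt17 and Angptl7. Olfm3 had 0 and 0 bp in WT and 859 and 1347 bp in RXRKO. Plcxd3, which encodes a phospholipase-like protein, had 533 and 562 bp in WT and 1481 and 1868 bp in RXRKO, all in 1 region over the start (chromosome 15, 4374821 to 4376688). Galnt17, which encodes a glycosyltransferase, had 833 and 764 bp in WT and 1684 and 2253 bp in RXRKO. The genotypes did not overlap at these genes, which were named by their small p, so this is no separate result. The Galnt17 length was split over 3 peaks in both WT libraries, 2 in RXRKO replicate 1 and 1 in RXRKO replicate 2. Angptl7, an angiopoietin-like gene, had 228 and 383 bp in WT and 1162 and 1464 bp in RXRKO. Lower in RXRKO were Fgf7, Sorbs2, Bex3, Nlrp3 and AA986860. Fgf7, which encodes a fibroblast growth factor, had 997 and 1491 bp in WT and 0 and 226 bp in RXRKO, in a region 3.93 kb from its start. Sorbs2, which encodes a cytoskeletal adaptor, had 696 and 1118 bp in WT and 0 bp in both RXRKO libraries. Fgf7 and Sorbs2 passed the filter only through WT. Nlrp3 had 2024 and 2487 bp in WT and 1236 and 1177 bp in RXRKO, and its region over the start had 1371 and 2153 bp against 737 and 722 bp. Bex3 on chromosome X had 1614 and 1546 bp in WT against 713 and 762 bp, and AA986860 had 2884 and 2708 bp against 1771 and 1870 bp, a difference that turned to +0.90 with the 100000 highest peaks. The limma adjusted p was 0.695 for each of these 9 genes, and the log2 differences ran from −1.57 (SE 0.235) for Fgf7 to +1.61 (SE 0.226) for Olfm3.

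The longest coverage near a start was at Ccr1l1, a chemokine receptor gene, Vpreb1, which encodes part of the surrogate light chain of B cell precursors, Sema3f, a semaphorin gene, Adm, which encodes adrenomedullin, and Ptbp1, a splicing repressor gene. Ccr1l1 had 5088 and 4576 bp in WT and 5562 and 5918 bp in RXRKO, and Vpreb1 had 5225 and 4349 bp against 4744 and 4846 bp. The genotypes overlapped at Vpreb1 and did not at Ccr1l1, and none of the 5 passed the test.

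The distal window ran from 5 to 50 kb on both sides of the start, to separate distal marks from those beside the promoter. It can also take in elements of neighbouring genes. It was tested in the same way with 1000 bp added to the length, and 3 of 17676 genes passed (0.017%), all lower in RXRKO. They stand for 2 places, since LOC115488350 overlaps Thrb, starts close to it and has the same covered lengths. At an unadjusted p under 0.05 were 1197 genes (6.77%), 632 higher and 565 lower. With the run pair as a block, 419 passed (2.37%), 230 higher (1.3%) and 189 lower (1.07%). The median length of the 230 was 3422 bp in WT and 5401 bp in RXRKO, and that of the 189 was 6822 and 4981 bp.

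Thrb encodes the thyroid hormone receptor beta, a partner of RXR (chromosome 14, 17659225 to 18040097). Peaks covered 6783 and 6353 bp of its distal window in WT, and only 2879 and 2640 bp in RXRKO (log2 difference −1.07, SE 0.132, limma adjusted p = 0.0242). The largest single difference was in a region inside the gene, 15.7 kb from the start (17673998 to 17675780), with 1632 and 1617 bp in WT and 0 and 303 bp in RXRKO. Pdk4 encodes a kinase that restrains pyruvate dehydrogenase and is a target of PPAR (chromosome 6, 5483351 to 5496278). Pdk4 passed the filter of 1000 bp only through WT. Here 3051 and 2789 bp were covered in WT, and just 569 and 897 bp in RXRKO (log2 difference −1.24, SE 0.168, limma adjusted p = 0.0398). Both RXRKO libraries lay far below both WT libraries at Thrb and Pdk4, which were named by their small p, so this is no separate result. Without WT replicate 1, WT replicate 2, RXRKO replicate 1 and RXRKO replicate 2 in turn, 4, 0, 161 and 14 genes passed, and without centring 44, of which 34 were higher. With the same number of peaks taken from each list, the adjusted p was 0.209 for both, and with the 100000 highest peaks 0.636. It was 0.111 and 0.155 for Thrb and Pdk4 without WT replicate 1, and 0.255 and 0.487 without WT replicate 2. Pdk4 also had 0.0634 with 100 bp added instead of 1000 and 0.0551 in a window of 5 to 20 kb.

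Next below in RXRKO came Ank2, Arhgef3 and Tspan5, which did not pass. Ank2, which encodes ankyrin-B, had 2611 and 4325 bp in WT and 878 and 1266 bp in RXRKO (limma adjusted p = 0.0791). Arhgef3, which encodes a guanine nucleotide exchange factor, had 5752 and 6659 bp against 3648 and 3835 bp. A region inside Arhgef3 (chromosome 14, 27122733 to 27124105) had 1372 and 1365 bp in WT and 438 and 417 bp in RXRKO. Tspan5, which encodes a tetraspanin, had 4185 and 4134 bp against 2081 and 2119 bp. Replicates of a genotype lay close together at Arhgef3 and Tspan5, and their adjusted p was 0.113. Higher in RXRKO were Mrgpra2b, Bub1, Slc39a6, Nsmce3 and Fbn1. Mrgpra2b, a Mas-related receptor gene, had 0 bp in both WT libraries and 1366 and 3264 bp in RXRKO, and passed the filter only through RXRKO (limma adjusted p = 0.0657). Bub1, which encodes a kinase of the spindle checkpoint, had 4755 and 4948 bp covered in WT against 7944 and 8762 bp in RXRKO (log2 difference +0.62, SE 0.0962, limma adjusted p = 0.0791). One region 30.5 kb from the Bub1 start was absent in WT and spanned 622 and 770 bp in RXRKO. The zinc transporter gene Slc39a6 had 2783 and 2759 bp against 4666 and 6993 bp. Nsmce3, which encodes a subunit of the SMC5/6 complex, had 2042 and 1504 bp against 3843 and 4970 bp. Fbn1, the fibrillin gene, had 7322 and 8187 bp against 10090 and 12605 bp. The genotypes did not overlap at any of these 8 genes, which were named by their small p, so this is no separate result.

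**Figure D3:**
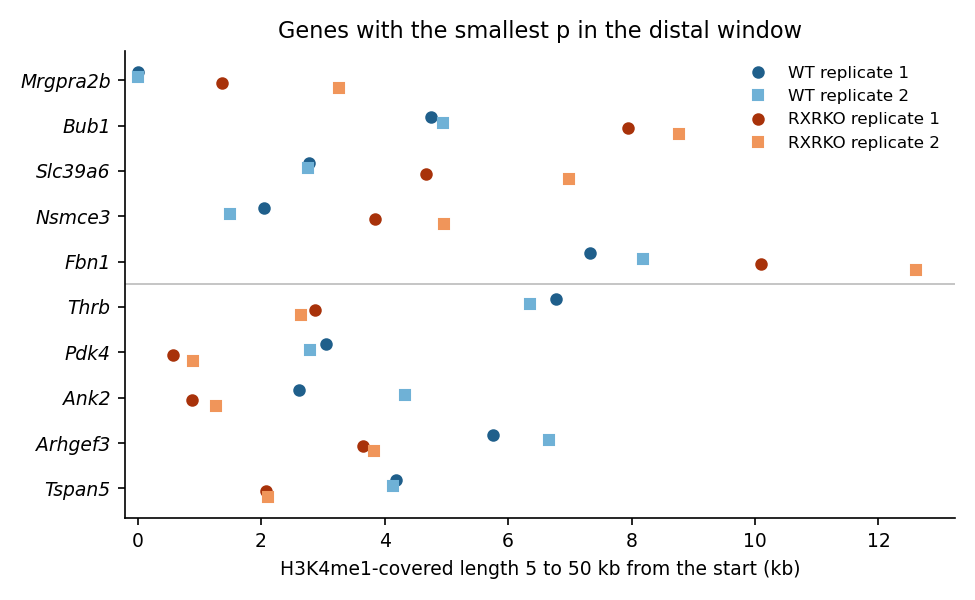
Length covered by H3K4me1 peaks in kb (horizontal axis) from 5 to 50 kb around the start of the 10 genes with the smallest p, 1 point per library. The 5 genes above the line were higher in RXRKO (orange and red) and the 5 below it lower, and Thrb and Pdk4 passed the test.

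The longest distal coverage was near Ifitm6, an interferon-induced transmembrane gene, Cish, which encodes an inhibitor of cytokine signalling, Tbc1d10c, a GTPase-activating protein gene, 4930404N11Rik and Kxd1. Ifitm6 had 23024 and 22781 bp in WT and 22107 and 24895 bp in RXRKO. These windows, crowded with marks, had log2 differences between −0.05 and +0.05 and genotypes that overlapped at all 5.

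Genes known to be controlled by RXR with a partner receptor were taken as a list of 29, all of which were tested in the distal window. Of these, 7 (24.1%) were lower in RXRKO at an unadjusted p under 0.05, against 3.2% of all genes tested, and 0 were higher, against 3.58%. With the block the same number, 7 (24.1%), passed and were lower, against 1.07% of all genes. Below 0 lay 20 members and above it 9. The median over the list was −0.0897 on the log2 scale, against −0.0017 over all genes. It was lower in both run pairs for 16 of 29 (55.2%), against 28.0% of all genes. The list was chosen with earlier results of these data known, and is not independent evidence of a direction. The list median ran from −0.121 to −0.0608 when any 1 library was left out. At an unadjusted p under 0.05 and lower were 7 members with the same number of peaks per list, against 2.60% of all genes. There were 4 with the 100000 highest peaks, against 2.49%, and 2 without centring, against 0.707%. Only Pdk4 passed on the main test.

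The 7 genes, named here after their values were seen, belong to several partners. Pdk4, Acot1 and Acot2 are PPAR targets of fatty acid metabolism, Abcg1, Mylip and Srebf1 are LXR targets of cholesterol and lipid handling, and Cyp26b1 degrades retinoic acid. Cyp26b1 had 14576 and 15143 bp covered in WT against 10917 and 13446 bp in RXRKO (log2 difference −0.33, SE 0.0652, limma adjusted p = 0.137), with a region 30.9 kb from its start (chromosome 6, 84562559 to 84563483) of 925 and 482 bp in WT and 0 in RXRKO. Mylip, which encodes a ubiquitin ligase of the LDL receptor, had 6913 and 7094 bp against 4944 and 5292 bp (−0.44, SE 0.101). A region 39.3 kb from Mylip (chromosome 13, 45428559 to 45429457) had 862 and 764 bp in WT and 0 in RXRKO. Near its start Mylip had the opposite sign, with 1209 and 1598 bp in WT and 2366 and 2643 bp in RXRKO (+0.61, SE 0.132, limma adjusted p = 0.794). The genotypes thus did not overlap at Mylip in either window, with less mark at a distance and more at the promoter.

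Acot1 and Acot2, acyl-CoA thioesterase genes, start 21.6 kb apart and share most of their windows, so they count as 1 place. Acot1 had 9837 and 11320 bp in WT and 8279 and 8581 bp in RXRKO, and Acot2 had 11019 and 11096 bp against 8697 and 9632 bp. Between them a region (chromosome 12, 83999326 to 84000040) had 715 and 650 bp in WT and 0 in RXRKO. Abcg1, which encodes a cholesterol exporter, had 10141 and 11731 bp against 8643 and 9553 bp. Its region with the largest difference (chromosome 17, 31088040 to 31091584) had 2315 and 2835 bp in WT and 1613 and 1701 bp in RXRKO. Srebf1, which encodes a regulator of lipid synthesis, had 16024 and 19057 bp against 14759 and 17326 bp, so its genotypes overlapped between runs. Near the start, log2 differences of Acot1, Acot2, Abcg1, Srebf1 and Cyp26b1 lay between −0.05 and +0.05. Other members had values above 0, such as Abca1, a cholesterol exporter gene, with 13176 and 13143 bp in WT and 13919 and 14566 bp in RXRKO, and Rara, the retinoic acid receptor gene, with 13160 and 16618 bp against 13728 and 18454 bp.

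**Figure D4:**
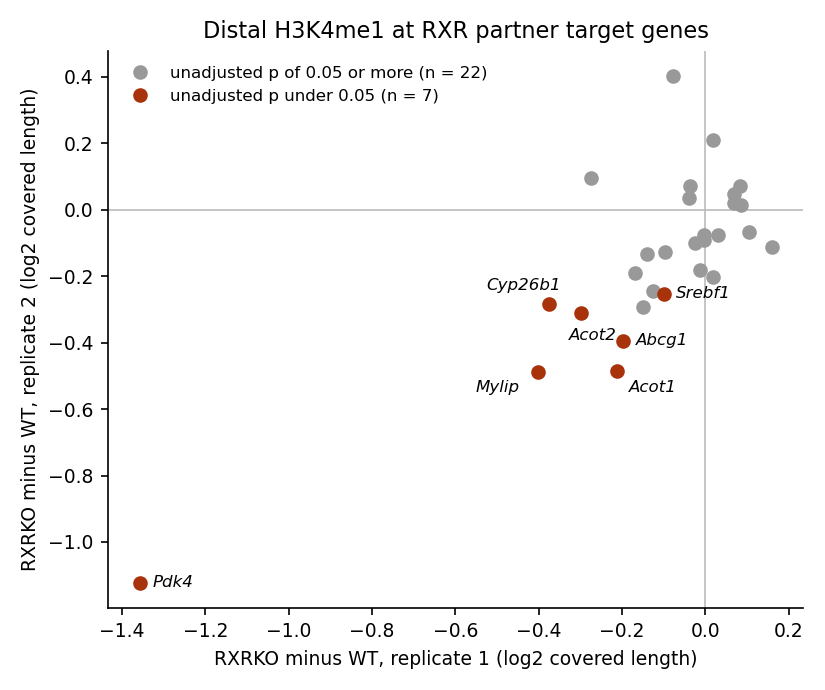
Difference in H3K4me1-covered length, RXRKO minus WT on the log2 scale, in replicate 1 (horizontal axis) and replicate 2 (vertical axis), for the 29 RXR partner target genes in the distal window. The 7 genes with an unadjusted p under 0.05 (red) lie at the lower left, with Pdk4 farthest out.

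Other gene classes showed the reach of the mark. All 22 HSC transcription factor genes and all 22 HSC surface and signalling genes were covered within 5 kb of the start in all 4 libraries, as were 16438 of 21631 protein-coding genes. Of 15 erythroid genes, 14 had a position in the reference, and 13 were covered in this way. So were 11 of 12 megakaryocyte genes, 14 of 15 stromal and endothelial genes, 10 of 15 muscle genes and 14 of 20 granulocyte and monocyte genes. The same held for 13 of 15 B cell genes, 13 of 17 T and NK cell genes, 14 of 16 neuronal genes and 8 of 15 liver genes. The granulocyte genes included 6 with no covered base in any library, and the liver genes 6. The HSC lists were thus covered in full, and most members of the other lists were covered too. The difference between the lists was not tested. In the distal window, the HSC surface gene with the most negative difference was Tek, the angiopoietin receptor gene, with 8904 and 9157 bp in WT against 7143 and 7951 bp in RXRKO (log2 difference −0.29, limma adjusted p = 0.387, and 0.0439 with the block). The most positive difference was at Fgd5, an HSC marker gene, with 10649 and 11699 bp against 12133 and 16359 bp (+0.26, limma adjusted p = 0.402, and 0.00981 with the block). With the 100000 highest peaks Fgd5 turned to −0.22. Among HSC transcription factors, Ikzf2, which encodes Helios, had 560 and 520 bp near its start in WT and 957 and 1742 bp in RXRKO, and Fli1 had 2061 and 1941 bp against 1415 and 1559 bp. Their adjusted p was 1.000, and Ikzf2 turned to −0.02 with the 100000 highest peaks.

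The MYC network and growth genes were covered near the start in all 4 libraries for 30 of 30, and 0 passed the main test in either window. In the distal window, Nop58, which acts in ribosome assembly, had 4310 and 4599 bp in WT and 5349 and 7133 bp in RXRKO (+0.34), and Ncl, the nucleolin gene, had 8267 and 8740 bp against 6375 and 7857 bp (−0.29). Genes for H3K4 methyltransferases and demethylases had 18 of 19 members covered near the start. Setd1b, which encodes a methyltransferase, had 1552 and 1541 bp against 2221 and 2420 bp there (+0.41), and Kmt2d, one of the writers of the mark, had 1093 and 1097 bp against 724 and 898 bp (−0.34). Neither passed, with a limma adjusted p of 1.000, and Setd1b turned to −0.13 with the same number of peaks per list. Large receptor families of the nose were almost bare. Of 1110 olfactory receptor genes, 95 and 97 had a covered base within 5 kb in WT and 96 and 109 in RXRKO, and of 355 vomeronasal receptor genes 6 and 9 did in WT and 8 and 13 in RXRKO. All 39 Hox genes and all 78 mitochondrial ribosomal protein genes were covered in all 4 libraries. Replication-dependent histone genes, which lie in clusters and share windows, had 11 of 67 lower in the distal window at an unadjusted p under 0.05 and 2 higher, against 3.2% and 3.58% of all genes tested. With the block, 6 were lower and 1 higher. By gene type, a peak lay within 5 kb of 81.1% to 82.3% of protein-coding genes, 71.7% to 75.6% of long non-coding RNA genes and 28.4% to 31.4% of pseudogenes over the 4 libraries.

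The genome was also scanned in bins of 100 kb, which do not rest on gene positions. Of 16571 bins, 24 passed the limma test (0.145%), 19 higher (0.115%) and 5 lower (0.0302%) in RXRKO. The 19 higher bins lay on 12 chromosomes, and 2 of them (10.5%) held a protein-coding start, against 55.7% of all bins tested. Of the 19, 13 had a WT mean under the 1000 bp asked of the mean over libraries, so they passed that filter only through RXRKO and had to differ. The smallest p was in a gene-poor bin of chromosome 10 (91800001 to 91900000), with 185 and 358 bp in WT against 3033 and 5048 bp in RXRKO (log2 difference +1.90, SE 0.181, limma adjusted p = 0.00575). The bin of chromosome 3 that holds the start of Olfm3 (114900001 to 115000000) had 300 and 0 bp in WT and 2209 and 3668 bp in RXRKO. A bin that overlaps Mlip, a gene for a lamin-interacting protein (chromosome 9, 77200001 to 77300000), had 3688 and 4561 bp against 7320 and 10246 bp. In each of these bins RXRKO replicate 2 had the most. Lower in RXRKO were a bin near Impg1, a gene of the photoreceptor matrix (chromosome 9, 80500001 to 80600000), with 2470 and 2414 bp in WT and 401 and 500 bp in RXRKO, which passed the filter only through WT, and the bin of the Thrb start (8542 and 8288 bp against 4623 and 5025 bp). The third was a bin that overlaps Shisa9, which encodes a glutamate receptor subunit partner, with 3941 and 5906 bp against 1661 and 1993 bp.

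At an unadjusted p under 0.05 were 1667 bins (10.1%), 5.52% of bins being higher and 4.54% lower. With the run pair as a block 731 passed (4.41%), 465 higher (2.81%) and 266 lower (1.61%). Leaving out WT replicate 1 gave 90 bins, and WT replicate 2 gave 3. Leaving out RXRKO replicate 1 gave 99 and RXRKO replicate 2 gave 0. It was 0 with the same number of peaks from each list and 0 with the 100000 highest peaks, and without centring it was 142, of which 127 were higher. Across bins, the difference between genotypes in replicate 1 correlated with that in replicate 2 with r = 0.373 (n = 16571), and 57.1% had the same sign. The values were r = 0.265 and 54.7% for the distal window (n = 17676) and r = 0.159 and 51.4% for the promoter window (n = 16483). Neighbouring bins and windows are not independent, and the run pairs share no library.

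Width was compared where the mark was present in every library. Of 112074 regions called in all 4, 0 differed in covered length by the limma test (0%), and 6798 (6.07%) were under 0.05 before adjustment. With the block 0 passed as well, and 871 and 273 passed without WT replicates 1 and 2. The share with an unadjusted p under 0.05 was 2.75% of the regions within 1 kb of a start, 5.84% between 5 and 20 kb and 8.40% beyond 100 kb. The widest regions lay near Rhod, a small GTPase gene (chromosome 19, 4437583 to 4442150), Slc48a1, a haem transporter gene, and Ihh, which encodes Indian hedgehog. The Rhod region had 3241 and 3853 bp in WT and 2900 and 4167 bp in RXRKO, so the genotypes overlapped. The peak with the highest fold lay 94.0 kb from Axin2, a gene of WNT signalling (chromosome 11, 109011629 to 109012110 in WT replicate 1). It ranked 1 and 2 in WT and 1 and 1 in RXRKO, and a peak 104 kb from Ghitm ranked 2 and 4 in WT and 197 and 2 in RXRKO.

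By chromosome, the X stood apart from the 19 autosomes in replicate 1. It held 2.282% and 2.196% of covered bases in WT and 2.139% and 2.165% in RXRKO. The log2 difference in share was −0.09 in replicate 1 and −0.02 in replicate 2, while the autosomes lay between −0.02 and +0.03 in replicate 1 and between −0.02 and +0.02 in replicate 2. Within replicate 2 the X therefore lay at the edge of the autosomes. The limma adjusted p over 20 chromosomes was 0.860 and 0 passed (0%), with X alone at an unadjusted p under 0.05. It was 0.00283 with the block, 0.00466 with the 100000 highest peaks and 0.885 with the same number of peaks from each list, and ran from 0.0551 to 0.495 with 1 library left out. The X carried 2.69 kb of H3K4me1 per protein-coding gene on average, against 3.37 to 7.49 kb on the autosomes.

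**Figure D5:**
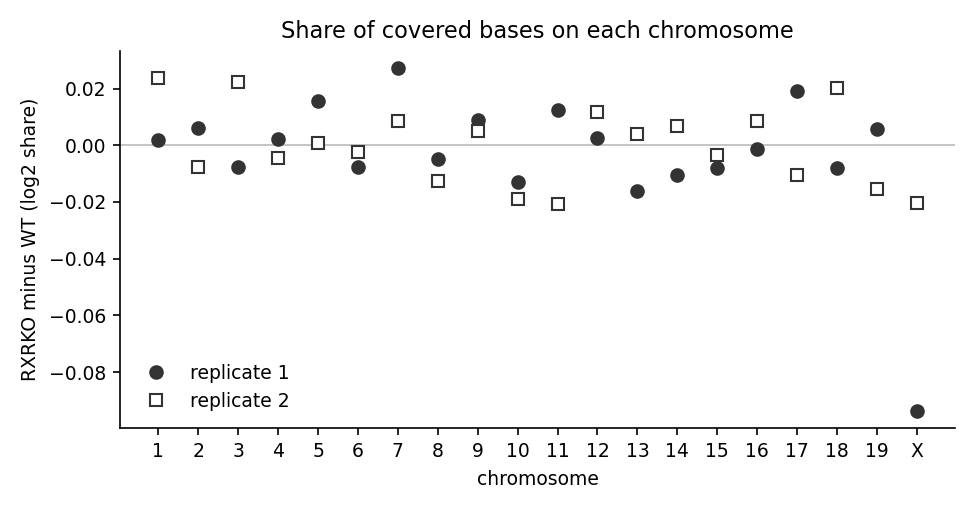
Difference in the share of covered bases, RXRKO minus WT on the log2 scale (vertical axis), for each chromosome (horizontal axis) in replicate 1 (filled circles) and replicate 2 (open squares). The X lies at −0.09 in replicate 1 and at −0.02 in replicate 2.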

How the data were processed

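CUT&RUN peak lists of 4 H3K4me1 libraries were used as deposited. Per the submitters' processing notes, cutadapt 1.7.1, Bowtie2 2.2.5, MACS3 and mm10 were used. The version of MACS3, the control and the treatment of duplicates were not given in the sources used here. Deposited lists hold positions, a fold ratio over background, −log10 p and q values and a score, and no read counts. Positions and summits were used, and the authors' fold ratio only to rank peaks inside a list. The score, −log10 p and −log10 q that the authors deposited were not used. Depth is unknown, so no counting intervals were computed.

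Base pairs covered by peaks were summed per window, bin or region, log2 transformed after adding 500 bp (promoter) or 1000 bp (distal and bins), centred on each library's median and fitted in R 4.3.3 with limma 3.58.1 (lmFit, then eBayes with a trend, except for chromosomes). Fold changes are on this scale and understate change at low lengths. Features with a mean length of at least 300 bp (promoter) or 1000 bp (distal and bins) were tested. Peaks were merged at an overlap of 1 bp. Of 21631 protein-coding genes, 17274 starts came from the RefSeq promoter table by strand, 3118 from the gene end with more H3K4me3 within 2 kb, and 1239 used both ends. The fit was tested on simulated data.

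The run tag shows that replicate numbers pair the libraries. Replicate differences of the 2 genotypes had r = 0.188 over distal windows and r = 0.332 over promoter windows. The value was 0.0890 over bins and 0.205 over shared regions. The members and lists were chosen with earlier results of these data known. Named genes were the 5 smallest p per direction and window with the same sign in both run pairs (1 per 200 kb), 3 bins per direction, the longest or widest features, the highest-ranked peaks, and, in the lists described in detail, the members with the largest differences, of which 1 is not reported here. Alternatives changed the block, the peaks used, the libraries, centring, added length, filter, window and overlap.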

Additional observations from a re-analysis of the deposited data

How the results depend on the processing

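The number of calls changed with the libraries and the peaks admitted. With the replicate block, 1 promoter window, 419 distal windows, 731 bins and 1 chromosome passed, and 0 shared regions. When 1 library was left out, the number that passed ran from 0 to 81 for promoter windows, from 0 to 161 for distal windows, from 0 to 99 for bins and from 0 to 871 for shared regions. The counts of regions called in 1 genotype then asked for a call only in the libraries kept, so they could only rise. They ran from 6888 to 19991 for RXRKO and from 6391 to 12377 for WT. The genotype that lost a library was counted by 1 library. With the same number of peaks per list, or the 100000 highest, 0 distal windows and 0 bins passed, and 1 chromosome passed with the 100000 highest. Without centring, 44 distal windows (34 higher, 10 lower) and 142 bins (127 higher, 15 lower) passed. Quantile normalization gave 49 bins, 10% of the added length 1, and no filter 7. The window of 5 to 20 kb gave 0 genes. Asking for 50% of both peaks, the overlap within a run fell to 77.0% and 73.3% of WT peaks and 77.9% and 70.9% of RXRKO peaks in replicates 1 and 2. For WT replicate 2, equal lists gave 87.5% and the 100000 highest peaks 86.4%. With the 100000 highest peaks, the difference turned to +0.90 for AA986860, −0.017 for Ikzf2, −0.22 for Fgd5, −0.23 for Plin2 and −0.016 for Mlxip. Mlxip was −0.060 in a 2 kb window, Plin2 ran from −0.046 to +0.27 with 1 library left out, and Setd1b −0.13 with the same number of peaks. The cause of these changes was not tested. Over 69 named genes, bins and chromosome X, 592 of 807 alternative values kept direction and side of the threshold, 156 no longer passed, 51 newly passed and 8 reversed.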
